A study of Mus musculus with 6 samples.

Results

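Retinoid, thyroid hormone and vitamin D receptors are transcription factors that bind DNA mostly as pairs with a retinoid X receptor (RXR). The group described here holds the 3 RXR subunits (Rxra, Rxrb, Rxrg), the 3 retinoic acid receptors (Rara, Rarb, Rarg), the 2 thyroid hormone receptors (Thra, Thrb) and the vitamin D receptor (Vdr). Members were taken by gene symbol, as every probe set whose single symbol in the platform annotation is one of these 9 genes. All 9 genes were measured, by 13 of the 22626 probe sets that are not controls, and they are 9 of 12393 genes in all. The brightest probe set, by its mean over all arrays, stands for the gene.

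In such a pair the partner usually binds the hormone or vitamin, and ligand binding swaps corepressor proteins for coactivators on the target genes. Hepatocytes take up and process retinoids, which in liver are stored mainly in stellate cells, and respond to thyroid hormone, with RXR alpha as the main RXR subunit of liver and thyroid receptor beta as the main thyroid receptor. Vitamin D receptor is scarce in hepatocytes and better known from other cells of the liver. AEG-1, astrocyte elevated gene 1, the protein encoded by Mtdh, has been reported to bind RXR protein, and the arrays ask whether the mRNA of RXR and its classical partners differs in hepatocytes that overexpress it.

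The study hybridised RNA of hepatocytes, the main metabolic cells of liver, in primary culture to 6 Affymetrix mouse arrays. The transgenic group, 3 arrays, came from Alb/AEG-1 mice, in which AEG-1 is overexpressed in hepatocytes, and the control group, 3 arrays, from wild-type mice. Both groups were of mixed B6/CBA strain, received no treatment and were harvested 24 h after plating on collagen. The labels do not spell out "Alb", which in mouse line names usually stands for the albumin promoter, active in hepatocytes. The labels call the arrays of a genotype biological replicates. They do not state age, sex or whether each array was a separate animal or culture, so the p-values reflect how far these samples scatter. Values are log2 expression values, on which a difference of 1 is a doubling, and all differences are transgenic minus wild type.

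The brightest Mtdh probe set was higher in transgenic cells, at 10.72, 10.40 and 10.81 against 8.75, 8.78 and 8.64, while none of the other 5 Mtdh probe sets was called higher. Array medians ran from 5.61 to 5.64. Of 8 measured hepatocyte markers, 0 were called by limma, at list means of 13.49 to 13.54 in transgenic and 13.50 to 13.53 in wild-type arrays. The highest value on each array was 14.99. Without overlap, transgenic Apob (0.13), Fgb (0.06) and Apoa1 (0.06) lay above wild type and Hnf4a (-0.07) below. Over all genes, 15.9% were called by limma after Benjamini-Hochberg adjustment at 0.05, of which 846 were higher (6.83% of genes) and 1121 lower (9.05%). The groups did not overlap for 34.5% of genes.

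Of the 9 receptors, Rarb rose and Rxra fell in transgenic hepatocytes, and 7 were not called. Rarb rose by 1.00 on the log2 scale from a wild-type level near background, a measured ratio of 2.01, and Rxra fell 1.31-fold at the brighter of its 2 probe sets. The transgenic and wild-type arrays did not overlap for 4 receptors, with Rarb above (16.9% of all genes) and all 3 RXR genes below (17.6% of all genes). With 2 of 9 called, against 15.9% of all genes, and 4 of 9 without overlap, against 34.5%, the counts lie near those of the whole array. The median difference was -0.04 for the receptors and 0.01 for all genes, and the median size was 0.16 against 0.10.

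**Figure D1:**
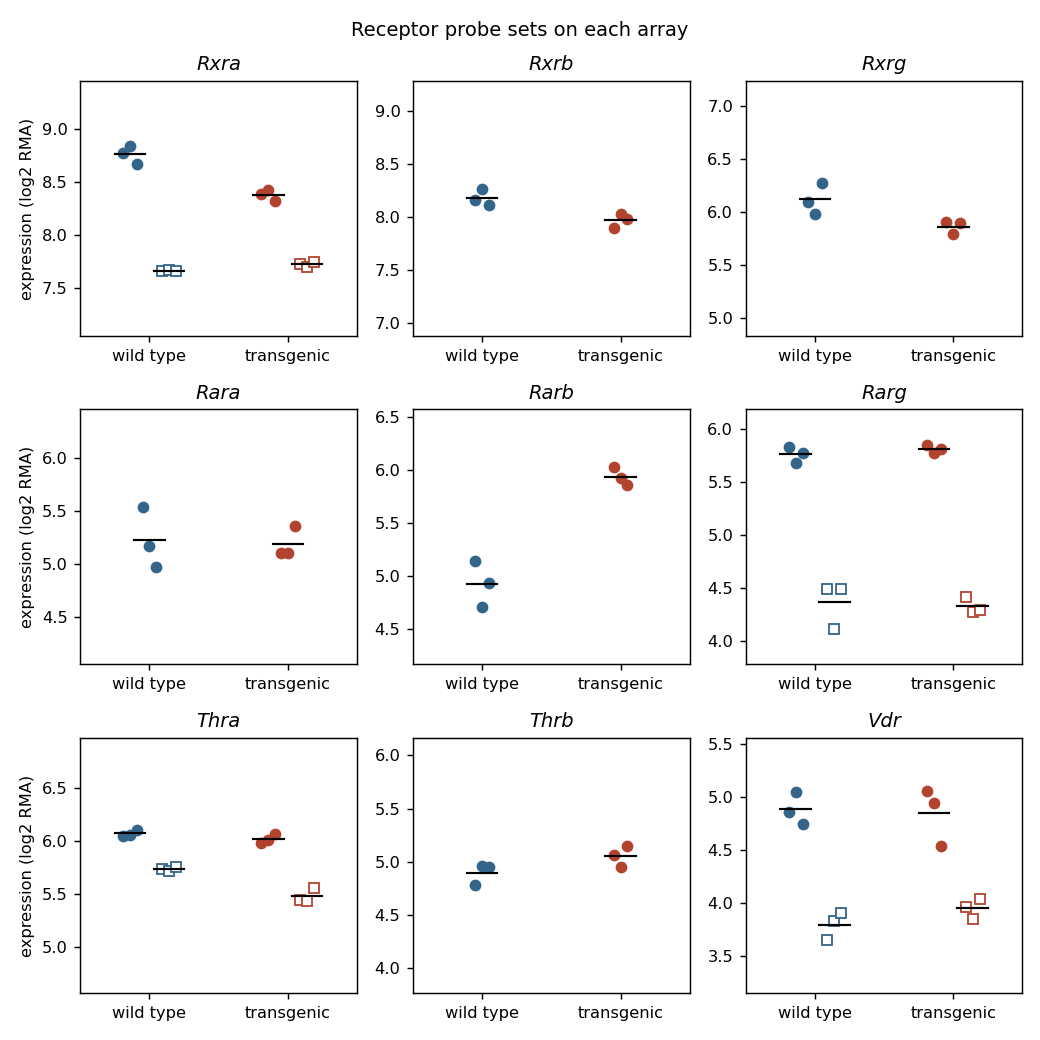
Expression (log2 RMA) of the 13 receptor probe sets on each array, in a panel per gene that spans the same range of log2 units. Filled circles are the brightest probe set of the gene, open squares the second, blue is wild type, red is transgenic and bars are means of 3 arrays; Rarb stands apart upwards, and the brighter Rxra probe set downwards, in the transgenic arrays.

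Rxra encodes RXR alpha. Its brighter probe set, 1454773_at, read 8.39, 8.43 and 8.33 in the transgenic arrays and 8.78, 8.85 and 8.67 in the wild-type arrays. Every transgenic array lay below every wild-type array. The means were 8.38 ± 0.05 and 8.77 ± 0.09 (SD, n = 3 per genotype), a difference of -0.38 (SE 0.06, limma adjusted p = 0.00610). The second Rxra probe set, 1425762_a_at, read 7.73, 7.70 and 7.75 in the transgenic and 7.66, 7.67 and 7.67 in the wild-type arrays. Here the transgenic arrays lay just above the wild-type ones. The difference was 0.06, with a 95% interval from -0.06 to 0.18 and an adjusted p of 0.541 in the fit over all probe sets.

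The Rxra probe sets thus disagreed, and their contrast was tested in a fit over the 4956 genes with several probe sets, an analysis added after the values had been seen. Brighter minus second probe set was 0.65, 0.73 and 0.58 in the transgenic and 1.12, 1.17 and 1.01 in the wild-type arrays. The contrast differed by -0.44 between genotypes (SE 0.08, limma adjusted p = 0.0351), in a fit that called 2.56% of these genes. Without any 1 of the 6 arrays the contrast ran from -0.49 to -0.41 and its adjusted p from 0.0648 to 0.133, so the call was lost each time, as it was with the replicate number as a block (adjusted p = 0.0787). With the mean of both probe sets Rxra gave -0.16, which did not pass (adjusted p = 0.0658). The annotation used here does not say which transcripts each probe set detects.

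Rxrb, the broadly expressed RXR beta, read 7.90, 8.03 and 7.98 in the transgenic and 8.16, 8.26 and 8.11 in the wild-type arrays. The groups did not overlap, and the difference of -0.21 (SE 0.06) missed the threshold (limma adjusted p = 0.0699). Rxrg, RXR gamma, best known from muscle and nervous tissue, read 5.90, 5.79 and 5.89 in the transgenic and 6.09, 5.98 and 6.28 in the wild-type arrays. Those groups did not overlap either, and the difference of -0.26 (SE 0.08) also missed the threshold (adjusted p = 0.0753). Both genes have 1 probe set, and their 95% intervals ran from -0.36 to -0.06 for Rxrb and from -0.45 to -0.07 for Rxrg. With a variance trend Rxrb passed (adjusted p = 0.0236). Without genes under the array median both passed (adjusted p = 0.0252 for Rxrb and 0.0310 for Rxrg), as did Rxrg without wild-type replicate 2 (-0.32, adjusted p = 0.0498).

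**Figure D2:**
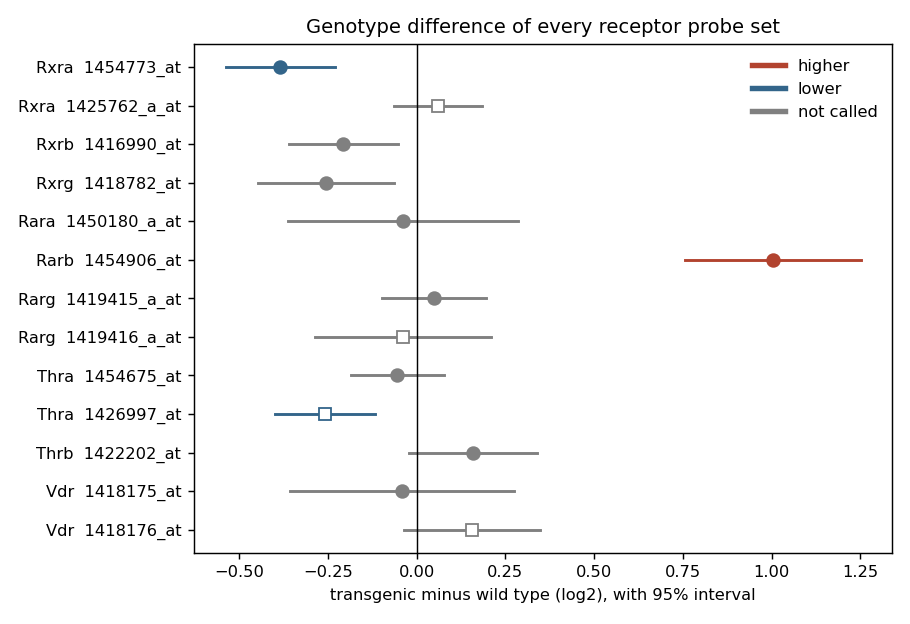
Genotype difference (transgenic minus wild type, log2) of each of the 13 receptor probe sets with its 95% interval from the fit over all probe sets, circles for the probe set that stands for the gene and squares for the other one. Colour gives the call at an adjusted p of 0.05, with Rarb higher, and 1 of 2 probe sets each of Rxra and Thra lower.

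Rarb encodes retinoic acid receptor beta, a receptor that is itself a textbook target of retinoic acid. Its only probe set, 1454906_at, read 6.03, 5.92 and 5.86 in the transgenic arrays and 5.15, 4.71 and 4.94 in the wild-type arrays. The lowest transgenic array was above the highest wild-type array by more than the spread within either group. The means were 5.94 ± 0.08 and 4.93 ± 0.22 (SD, n = 3 per genotype), a difference of 1.00 (SE 0.11, 95% interval from 0.76 to 1.25, limma adjusted p = 0.000685). It ranked 252 of 12393 genes by p. Wild-type Rarb signal lay under the array medians, a range near background, so the part of background in that signal is unknown and the ratio of 2.01 may not be the ratio of the transcripts. As a guide to low signal, 24 measured genes of distant tissues such as retina, testis and muscle had a median level of 4.11 and an upper quartile of 5.04. Of these genes, 7 were at or above Rarb in the wild-type and 1 in the transgenic arrays.

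The start region of Rarb is shown because the receptor is known to be controlled from it. A retinoic acid response element is usually a direct repeat of a 6-base half-site with a spacer of 5 bases. The half-site was taken as AGGTCA, as AGTTCA, which has another inner letter, as GGGTCA, which has another starting letter, or as GGTTCA, which has both, and these were searched on both strands as direct repeats in the 250 bases before each start site, with RefSeq sequences of build GRCm38.p6. Rarb, the only one of 8 receptors found in that sequence table to hold such a repeat with a spacer of 1 to 5 bases at any of their 16 start sites, has 1, with a 5-base spacer, at bases 53 to 37 before the start. Cyp26a1, which encodes the enzyme that breaks down retinoic acid, is shown beside it as a retinoic acid target picked because it also rose. Of the 11 measured targets of retinoic acid receptors listed below, Cyp26a1 was the only 1 called and 10 were not. Its repeat lies on the other strand, at bases 32 to 16 before the start. In the lines below, 5′ to 3′ on the gene's strand, capitals mark the repeat.
Rarb, chr14:16575477-16575726, minus strand: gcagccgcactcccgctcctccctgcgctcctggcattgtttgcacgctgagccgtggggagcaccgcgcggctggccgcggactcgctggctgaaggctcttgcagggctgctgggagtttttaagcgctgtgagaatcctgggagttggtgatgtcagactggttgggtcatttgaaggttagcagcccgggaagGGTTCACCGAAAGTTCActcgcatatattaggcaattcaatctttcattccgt
Cyp26a1, chr19:37697558-37697807, plus strand: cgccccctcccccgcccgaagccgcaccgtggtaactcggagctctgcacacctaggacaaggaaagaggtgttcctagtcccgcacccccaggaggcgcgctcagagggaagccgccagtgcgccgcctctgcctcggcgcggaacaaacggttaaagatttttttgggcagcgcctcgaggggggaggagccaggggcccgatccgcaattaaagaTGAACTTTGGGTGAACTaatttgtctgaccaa

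Of 32851 start windows in the table, 29 held a repeat with a 5-base spacer (0.0883%), and these belonged to 28 genes. Of these genes 6 were measured, and Rarb and Cyp26a1 rose. Blvrb, the gene of biliverdin reductase B, fell, and 3 were not called. Over all genes 6.83% were higher, but Rarb and Cyp26a1 were known to be higher when the search was made. The 2 of 6 is therefore no test of the repeat, and no other measured gene that holds it rose. With a 2-base spacer, which retinoic acid receptors also bind, 0 of 8 measured genes rose and 2 fell, and with a 1-base spacer 2 of 15 rose and 1 fell. With spacers of 3 and 4 bases 0 of 5 and 0 of 2 genes were called by limma. An unadjusted p under 0.05 was found for 28.9% of all genes. For spacers of 1, 2, 3, 4 and 5 bases it was found for 6 of 15, 5 of 8, 1 of 5, 0 of 2 and 3 of 6. Differences between the spacers were not tested. Blvrb was at 10.41 against 10.66 (-0.26, SE 0.05, limma adjusted p = 0.0131), and the others were Hbb-y (0.07), Ppbp (0.19) and Tnfsf13b (-0.16). A match describes letters and not binding, and whether the repeat bears on these differences was not tested.

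Rara and Rarg encode the other retinoic acid receptors. Rara read 5.10, 5.11 and 5.36 in the transgenic and 5.54, 5.17 and 4.97 in the wild-type arrays, so the groups overlapped and wild-type replicate 1 was the highest of all. The difference was -0.04 (95% interval from -0.36 to 0.29, limma adjusted p = 0.901). The brighter Rarg probe set read 5.85, 5.77 and 5.81 against 5.83, 5.68 and 5.77, also overlapping, a difference of 0.05 (95% interval from -0.09 to 0.19, adjusted p = 0.674). The second Rarg probe set gave -0.04 (adjusted p = 0.869 in the fit over all probe sets). The direction of neither gene was settled, since Rara turned positive in 4 of 16 alternatives and Rarg negative in 1 of 17. Every array lay under its own median for Rara and above it for the brighter Rarg probe set.

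Thra and Thrb encode thyroid hormone receptors alpha and beta. Thrb, the main form of liver, read 5.07, 4.95 and 5.15 in the transgenic and 4.78, 4.96 and 4.95 in the wild-type arrays. The groups overlapped, and the difference of 0.16 (SE 0.08, 95% interval from -0.02 to 0.34) was not called (limma adjusted p = 0.220). All 6 Thrb values lay under the array medians. The brighter Thra probe set, 1454675_at, read 5.98, 6.01 and 6.06 against 6.05, 6.06 and 6.11, a difference of -0.05 (adjusted p = 0.568) with overlapping groups.

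The second Thra probe set, 1426997_at, read 5.44, 5.43 and 5.56 in the transgenic and 5.74, 5.72 and 5.75 in the wild-type arrays. These did not overlap, and in the fit over all probe sets, which called 12% of them, it fell by 0.26 (SE 0.06, adjusted p = 0.0296). The call was lost with the replicate number as a block (adjusted p = 0.0609) and without any 1 of 5 arrays, all but transgenic replicate 3 (adjusted p from 0.0631 to 0.106). The contrast between the Thra probe sets was 0.20 (SE 0.07) and did not pass (adjusted p = 0.220). In all, 3 of 13 receptor probe sets were called, and 6 of 13 had groups that did not overlap, against 31.3% of all probe sets.

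Vdr encodes the vitamin D receptor. Its brighter probe set read 5.06, 4.94 and 4.54 in the transgenic and 4.86, 5.05 and 4.75 in the wild-type arrays, with transgenic replicate 3 the lowest and the groups overlapping. The difference was -0.04 (95% interval from -0.36 to 0.27, limma adjusted p = 0.884), and without transgenic replicate 3 it was 0.11. The second probe set read 3.97, 3.85 and 4.04 against 3.65, 3.83 and 3.91, a difference of 0.15 (adjusted p = 0.294 in the fit over all probe sets). Both Vdr probe sets lay under the median of every array. Of the 24 genes of distant tissues 7 were at or above the brighter Vdr probe set in either genotype, a position it shares with Thrb (6 in transgenic and 7 in wild-type arrays) and Rara (6 and 5).

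The genes whose values ran most alike with Rarb over the 6 arrays, by Pearson correlation among 12392 other genes, were Nampt (r = 0.9994), Abhd2 (0.9978) and Diaph1 (0.9970). Nampt, an enzyme of NAD synthesis, rose by 0.43, Abhd2, a serine hydrolase, by 0.83 and Diaph1, an actin nucleator, by 0.37. The second probe sets of Nampt (0.14) and Diaph1 (0.12) were not called. For Rxra they were Pgpep1 (r = 0.9988), Nxt1 (0.9958) and Txnl4a (0.9952). Pgpep1, a peptidase, fell by 0.37 and Txnl4a, a splicing factor, fell by 0.33, with its second probe set not called (-0.16). Nxt1, an RNA export factor, gave -0.14 and was not called. The points share 2 genotype groups, which can raise r, and correlation within a genotype was not tested. Of the 12392 other genes, 387 passed 0.95 with Rarb and 388 with Rxra.

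Other genes of these pathways were counted in lists, beside 6.83% of all genes called higher and 9.05% called lower, and differences between the lists were not tested. The other receptors that pair with RXR were mostly lower, with 6 of 9 measured genes fallen, 0 risen and a median of -0.40. Pparg, the receptor of fat storage, fell by 2.01, Ppara, which drives fatty acid oxidation, by 0.77, and the xenobiotic receptor gene Nr1i3 by 0.36. Nr1h4, the bile acid receptor FXR, fell by 0.40, Nr1i2, the xenobiotic receptor PXR, by 0.41 and Nr4a1, an orphan receptor, by 0.42. Nr1h3, the oxysterol receptor LXR alpha, gave -0.11 (limma adjusted p = 0.245). Whether that share differs from the 1 of 9 receptors described above that fell was not tested.

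**Figure D3:**
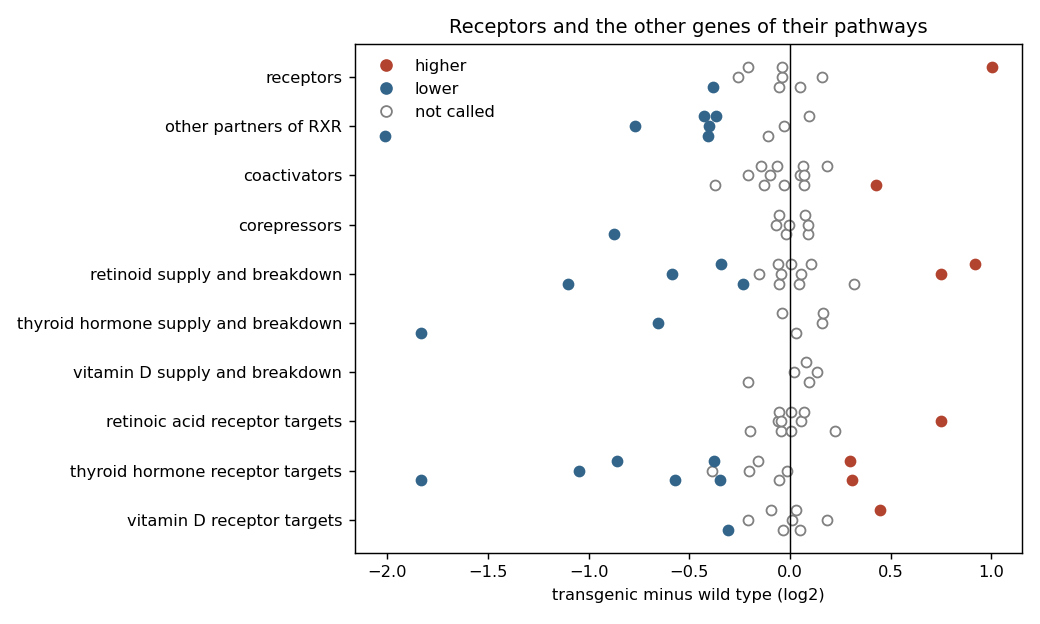
Genotype difference (transgenic minus wild type, log2) of the receptors and of each measured gene in the lists of their pathways, a point per gene at its brightest probe set, red where higher, blue where lower and open where not called at an adjusted p of 0.05. Vertical offsets within a list only separate points; the other partners of RXR lie mostly left of 0, with 6 of 9 lower, and the vitamin D supply genes have 0 of 5 called.

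Coactivators and corepressors are the proteins that receptors exchange when they bind ligand. The share called was 7.69% of 13 coactivator and 12.5% of 8 corepressor genes, near the 15.9% of all genes. Of the coactivator genes 1 rose and 0 fell, with a median of -0.03. The riser was Ncoa3, a p160 coactivator, at 6.20 ± 0.02 against 5.77 ± 0.15 (0.43, SE 0.08, limma adjusted p = 0.00853). Ppargc1b gave -0.37 (adjusted p = 0.0577) and Crebbp, a histone acetyltransferase, -0.14 (adjusted p = 0.209). Of the corepressor genes 0 rose and 1 fell, Nrip1, which is recruited by ligand-bound receptors, at 7.21 ± 0.11 against 8.08 ± 0.14 (-0.87, SE 0.09, adjusted p = 0.000531). Both Nrip1 probe sets were called lower. Tbl1xr1, a subunit of the NCoR complex, gave 0.07 and Lcor 0.09, and neither was called.

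Genes that supply or break down the ligands were counted for each hormone. In the retinoid list 2 of 15 genes rose and 4 fell, with a median of -0.04. Cyp26a1 read 10.52, 10.57 and 10.49 in the transgenic and 9.82, 9.76 and 9.76 in the wild-type arrays, without overlap (0.75, SE 0.05, limma adjusted p = 9.24e-05). Fabp5, a fatty acid binding protein that can carry retinoic acid, rose by 0.92 (SE 0.07). Rdh16, a retinol dehydrogenase, fell by 1.10 (SE 0.06), and the retinol dehydrogenases Rdh10 and Rdh11 by 0.34 and 0.59. Aldh1a1, an enzyme that makes retinoic acid, fell by 0.23, a call lost in 6 of 17 alternatives, among them the replicate block and leaving out any 1 array but wild-type replicate 1.

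In the thyroid hormone list 0 of 6 genes rose and 2 fell, with a median of -0.01. Dio1, a deiodinase that converts thyroxine to the active hormone, fell by 1.83 (SE 0.09, limma adjusted p = 9.65e-06), and Crym, a cytosolic thyroid hormone binding protein, fell by 0.66 (SE 0.07, adjusted p = 0.000707). Slco1a1, an organic anion transporter gene, gave 0.16 and was not called. In the vitamin D list 0 of 5 genes were called by limma. Of these 1, Cyp24a1, had an unadjusted p under 0.05, as did 28.9% of all genes. Cyp24a1, the enzyme that degrades active vitamin D, gave -0.21, Cyp27a1, a vitamin D hydroxylase, 0.14 and Cyp27b1, which makes the active form, 0.08.

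Textbook target genes were counted for each receptor class, and the lists mix genes that a receptor induces with genes it represses. Of 11 measured targets of retinoic acid receptors 1 rose, Cyp26a1, 0 fell, and the median was 0.00. Hoxa5, a homeobox gene, gave 0.22 (limma adjusted p = 0.132) and Cdx1, another, -0.20 (adjusted p = 0.150). Of 13 thyroid hormone receptor targets 2 rose and 6 fell, with a median of -0.35. The fallers were led by Dio1, Cyp7a1, which starts bile acid synthesis from cholesterol (-1.05), and the glucose phosphatase gene G6pc (-0.86). Dio1 was also counted in the thyroid hormone list above. The 5 targets not called were Acaca (-0.39), Cpt1a (-0.20), Thrsp (-0.16), Hr (-0.05) and Klf9 (-0.01). The risers were Bcl3, a coregulator of NF-kB (0.31), and Pck1, an enzyme of glucose synthesis (0.30). Of 9 vitamin D receptor targets 1 rose, Cyp3a13, a drug-oxidising enzyme (0.45, SE 0.06), and 1 fell, Thbd, thrombomodulin (-0.31, SE 0.08), a call lost in 6 of 17 alternatives. Cdkn1a, the cell cycle inhibitor p21, gave 0.18 (adjusted p = 0.152).

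Rarb and Vdr are also known from cells other than hepatocytes, and in such bulk samples fewer cells of a type and less RNA per cell cannot be told apart. Of 11 macrophage markers 2 rose, Ptprc (0.61) and Marco (0.69, lost in 4 of 16 alternatives). The list means were 6.81 to 6.87 in transgenic and 6.55 to 6.68 in wild-type arrays. C1qa, C1qb, Cd68, Vsig4 and Lyz2 were not called, but their transgenic arrays all lay above the wild-type ones, as for 16.9% of all genes. For Adgre1, Csf1r, Clec4f and Cd5l the groups overlapped. Of 11 stellate cell markers 1 rose, Lum (0.20, lost in 11 of 16 alternatives), at list means of 5.38 to 5.41 against 5.25 to 5.32. Uncalled Reln and Acta2 also lay above without overlap, while for Col1a2 (0.32), Col1a1, Des, Ngfr, Dcn, Col3a1 and Pdgfrb the groups overlapped. The second Col1a2 probe set gave 0.005. The retinoid-storage marker Lrat, also overlapping, was at 3.37 against 3.42. Of 10 endothelial markers 2 rose, Clec4g (0.50, with its second probe set not called at 0.17) and Kdr (0.41, lost in 6 of 17 alternatives). The endothelial list means were 5.98 to 6.08 against 5.81 to 5.94. Of 5 cholangiocyte markers 1 rose, Epcam (1.52), at list means of 5.07 to 5.14 against 4.71 to 4.79. Krt19 (0.36), Cftr (0.05), Krt7 (-0.03) and Sox9 (-0.02) were not called, and their groups overlapped. None of these 37 markers fell (0 by limma). The share that rose was 18.2%, 9.09%, 20% and 20% of these lists in turn, against 6.83% of all genes. RMA gives no value of 0, and 2, 7, 3 and 4 members of these lists in turn lay under the array median. The list means of the 24 genes of distant tissues were also higher, at 4.402 to 4.420 in transgenic and 4.320 to 4.398 in wild-type arrays. Of these genes 1 was called higher, and 22 lay under the array median. The part of other cells in the Rarb difference was not tested.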

How the data were processed

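Gene expression was measured on 6 Affymetrix arrays, 3 per genotype. The submitters' processing notes name RMA and Affymetrix Expression Console, with which the authors made the deposited log2 values, 1 per probe set. Software versions and whether the 6 arrays were processed jointly are not stated there. RMA equalises distributions between arrays, so each value is relative to the other genes on its array. Arrays have no read depth, and their number limits the precision.

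Of 22690 probe sets, 64 controls were left out, 20380 carried 1 gene symbol, 691 several and 1555 none. Entrez identifiers of 20351 probe sets matched the GRCm38.p6 gene table, with 0 symbols changed. Symbols of the receptors appear in 0 probe sets with several symbols. The brightest probe set represented each of 12393 genes. Genotypes were compared with limma 3.58.1 in R 4.3.3, with lmFit and eBayes, two-sided, adjusted by Benjamini-Hochberg over all genes at a threshold of 0.05. All probe sets were fitted likewise.

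The receptors and gene lists were chosen with earlier results of these data known. Named genes are all receptors, Mtdh, up to 3 members of each list with the smallest p, and the 3 genes most correlated with each called receptor. The remaining called partners of RXR, Rdh10, Rdh11, Aldh1a1, Bcl3, Pck1, Nr1h3, Lrat and the genes with a 5-base-spaced repeat were named after their values were seen. So were the uncalled markers C1qb, Cd68, Vsig4, Lyz2, Adgre1, Csf1r, Clec4f, Cd5l and Acta2. The same holds for Col1a1, Des, Ngfr, Dcn, Col3a1, Pdgfrb, Krt7, Sox9 and Apoa1, and for the uncalled thyroid hormone receptor targets. On simulated data with the spread of these genes, the fit recovered 67% of 200 genes changed by 0.5 and 95.5% of 200 changed by 1, with 5 and 3 false calls. Each simulation changed 200 of 12393 genes, fewer than the 1967 called in the data. The adjustment depends on how many genes change, so these rates need not hold for the data.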

Additional observations from a re-analysis of the deposited data

How the results depend on the processing

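Rarb stayed higher and past the threshold in all 16 alternatives that hold it, at 0.90 to 1.11, and the filter on genes under the array median leaves it out. Rxra stayed lower in all 17, but only the mean of probe sets used its second probe set, and there the call was lost (-0.16, 0 receptors lower). The other alternatives rest on the brighter Rxra probe set and do not bear on the disagreement of the probe sets. Of 149 receptor values under alternatives, 134 kept direction and call. The probe set with the highest variance turned Rarg to -0.039 and made Thra -0.26 a call, so that 2 receptors were lower. Without genes under the array median 0 receptors were higher and 3 lower, as Rxrb (-0.21) and Rxrg (-0.26) passed, and a variance trend gave 2 lower, with Rxrb at -0.21. Uncalled Vdr turned to 0.056 with the mean of probe sets, and array weights turned Rara to 0.0080 and Vdr to 0.0081. Without moderation 1271 genes were called, 560 higher and 711 lower.

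Leaving out 1 array gave 1267 to 1700 genes called, 540 to 739 higher and 727 to 961 lower, 1685 to 2350 probe sets called (2715 with all arrays) and 1 to 2 receptors lower. The count of genes was lowest without transgenic replicate 1 (1267), and genes lower numbered 741 without transgenic replicate 3. Over the same 6 fits Rxrg ran from -0.32 to -0.18, Rara from -0.17 to 0.12 and Vdr from -0.15 to 0.11. Median centring and quantile normalization changed no receptor's direction or call.

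Replicate numbers are shared between genotypes, but deviations of same-numbered samples correlated at -0.01, -0.01 and 0.10, so the numbers were not taken as pairs, and not every sample correlated best with its own number. With the replicate block 1505 genes were called. The block kept both receptor calls, at adjusted p = 0.0139 for Rxra and 0.00295 for Rarb. Signal near background limits Rara, Thrb, Vdr and wild-type Rarb.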
